A study of Mus musculus with 60 samples.

Results

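Nuclear receptors are transcription factors that are switched by small lipophilic ligands, and coregulators are the proteins that these receptors recruit to activate or repress their target genes. A list of 40 such genes was followed through the kidneys of control and cKOt mice over 24 h. The rule for the list names the genes and uses no measured value. Of the 40 genes, 39 reached at least 1 CPM (counts scaled to a common library size) in at least 1 sample and were among the 15546 retained genes, out of 55335 gene IDs in the count files. The remaining gene, Nr4a3, an immediate early orphan receptor, stayed at or below 0.822 CPM in all 60 samples and is not described further.

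RNA-Seq counts came from 60 male mice, with 5 mice in each of 12 groups formed by 2 genotypes and 6 zeitgeber times, every 4 h from lights on (ZT0) to ZT20, with lights off at ZT12. The cKOt mice carried Bmal1lox/lox/Pax8-rtTA/LC-1 Cre, and their control littermates carried Bmal1lox/lox without the transgenes, all on the C57BL/6J background. Both genotypes drank doxycycline (2 mg/ml) for 2 weeks from 8 weeks of age, so the antibiotic was shared and only the mice with both transgenes could delete Bmal1 (Arntl). Kidneys were taken about a month later. The Pax8 promoter drives the deletion in tubule cells, whereas vessels, stroma, glomerular tufts and immune cells of the same kidney keep the gene. The labels give the renal tubule as the tissue, but the methods describe pieces of frozen kidney, and markers of podocytes (300.4 to 437 summed CPM over both genotypes), endothelium (407 to 575) and macrophages (133 to 302) were present beside those of proximal tubule (35399.7 to 57752). In such bulk RNA, fewer cells of a type and less RNA per cell cannot be told apart.

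Depth was 17791420 to 20906706 counts per sample. The least expressed tested members (Rxrg, Nr1i3, Nr5a2 and Nr0b2) had 1 to 25 counts per mouse, and their values are the least precise. Arntl is the targeted gene. In control mice it ran from 2.73 CPM on average at ZT8 to 48.4 ± 10.2 CPM (SD, n = 5) at ZT0, and in cKOt mice it stayed between 17.4 and 24.4 CPM at all 6 times. Averaged as plain CPM over 30 mice of each genotype, Arntl was slightly lower after the deletion, at 20.7 against 22.2 for the controls. The fitted 24-h mean, which is taken on the log2 scale, was higher in cKOt mice (log2 difference 0.71 ± 0.091, edgeR adjusted p = 2.2e-09). All cKOt mice lay above all control mice at ZT4, ZT8 and ZT12 and below them at ZT0 and ZT20. The genotypes overlapped at ZT16. Counts over the whole gene do not show the loss of an exon, so the flattened course of Arntl is the only check of the labels here, and the deletion itself was not analysed here. A single cKOt ZT16 sample, replicate 4, was marked for removal in the study's sample table and was kept here under its label. The calls of Ppara, Esrrg, Ppargc1b and Esr1 that were lost without it are given with those genes.

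The receptors on the list fall into well-known classes. PPARs, LXRs, FXR, PXR and CAR bind fatty acids, oxysterols, bile acids or xenobiotics and pair with a retinoid X receptor (RXR) on DNA. Retinoic acid and thyroid hormone receptors use the same partner. HNF4, the estrogen-related receptors and the other orphan receptors act largely without a classical hormone. In the kidney, HNF4 is a defining factor of the proximal tubule, and PPAR and estrogen-related receptors with their coactivators of the PGC-1 family set fatty acid oxidation and mitochondrial gene expression, on which tubular transport depends. REV-ERB receptors, which are outside the list, are part of the clock itself.

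The promoters of 4 members are printed here. The members whose daily time course differed between genotypes and that have a window in the table (Ppard, Nr2f6 and Ppara) and the bile acid receptor Nr1h4, the most abundant member with a called fall of 1.2-fold or more, are shown by the 250 bases before their RefSeq start sites (build GRCm38.p6), written 5′ to 3′ on the gene's own strand. The capitals mark GC boxes (GGGCGG, both strands, bound by Sp1-type factors) and the nuclear receptor core element AGGTCA (both strands).
Ppard (chr17:28232504-28232753, plus strand): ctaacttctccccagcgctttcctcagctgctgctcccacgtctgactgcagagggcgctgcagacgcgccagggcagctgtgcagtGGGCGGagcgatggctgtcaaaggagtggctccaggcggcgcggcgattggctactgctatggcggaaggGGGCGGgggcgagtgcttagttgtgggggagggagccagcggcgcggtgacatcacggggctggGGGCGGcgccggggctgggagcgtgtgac
Nr2f6 (chr8:71381953-71382202, minus strand): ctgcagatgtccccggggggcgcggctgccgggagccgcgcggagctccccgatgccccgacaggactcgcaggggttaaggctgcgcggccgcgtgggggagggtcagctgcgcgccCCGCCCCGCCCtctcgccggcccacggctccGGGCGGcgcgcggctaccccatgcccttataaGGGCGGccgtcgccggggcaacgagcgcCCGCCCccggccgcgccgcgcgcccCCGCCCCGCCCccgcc
Ppara (chr15:85735526-85735775, plus strand): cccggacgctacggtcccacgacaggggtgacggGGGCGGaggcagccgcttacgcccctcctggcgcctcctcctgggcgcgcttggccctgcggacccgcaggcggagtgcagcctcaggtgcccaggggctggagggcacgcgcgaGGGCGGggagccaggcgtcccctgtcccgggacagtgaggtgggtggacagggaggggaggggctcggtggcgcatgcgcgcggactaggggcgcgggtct
Nr1h4 (chr10:89506659-89506908, minus strand): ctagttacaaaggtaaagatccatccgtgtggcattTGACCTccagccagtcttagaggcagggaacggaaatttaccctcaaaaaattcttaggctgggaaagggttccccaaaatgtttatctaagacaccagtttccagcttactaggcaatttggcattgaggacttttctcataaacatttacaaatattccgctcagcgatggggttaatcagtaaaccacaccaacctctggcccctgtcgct
The Ppard window held 3 GC boxes, that of Nr2f6 held 7 (adjacent copies share letters), that of Ppara held 2 and that of Nr1h4 held 1 core element and no GC box. The windows of Ppara and Nr1h4 lie inside the annotated genes (chr15:85734983-85802819 and chr10:89454234-89533585). The bases before the outermost annotated starts of these 2 genes are not shown. Of the 32851 windows of this length that were searched, 32.7% held a GC box and 14% a core element. The canonical E-box CACGTG, the sequence that BMAL1 with its partner binds, was found in 6.02% of the windows searched. It was found in 4 of the 56 windows searched for 34 of the 39 members (Nr0b2, Nr1i3, Rara and Thrb). None of the printed windows held it, and none held the D-box (TTATGTAA or TTATGCAA, in 1.5% of windows), the RORE bound by REV-ERB (0.177%) or the DR1, the direct repeat of the core element with a single base between (0.0335%). These are matches of letters within 250 bases and say nothing of sites farther away. No window was searched for Thra, Hnf4g, Ppargc1b, Ncoa2 and Ncoa3.

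Averaged over the 6 times, 24 of the 39 members differed between genotypes (edgeR quasi-likelihood F test, p-values adjusted by Benjamini-Hochberg over all retained genes). For all 15546 genes the share was 50%, so a call on its own does not set a member apart. Higher in cKOt were 11 members (26.8% of all genes were higher) and lower were 13 (23.2% of all genes). With an added requirement of a 1.2-fold change, 10 members were left (16.1% of all genes), of which 4 were higher (7.9% of all genes) and 6 lower (8.16%). The 4 were Ppard, Thra, Nr1i2 and Nr2f6, and the 6 were Ppara, Pparg, Rxrg, Nr1h4, Nr1i3 and Nr5a2. Beyond 2-fold, 2 members remained, Ppard and Thra, against 1.88% of all genes. The median size of the log2 difference was 0.13 over the members and 0.10 over all retained genes. Rxrg and Nr5a2 passed the filter through 1 sample each, both of control mice, the genotype in which they were higher, so their place among the tested members is not independent of that difference.

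**Figure D1:**
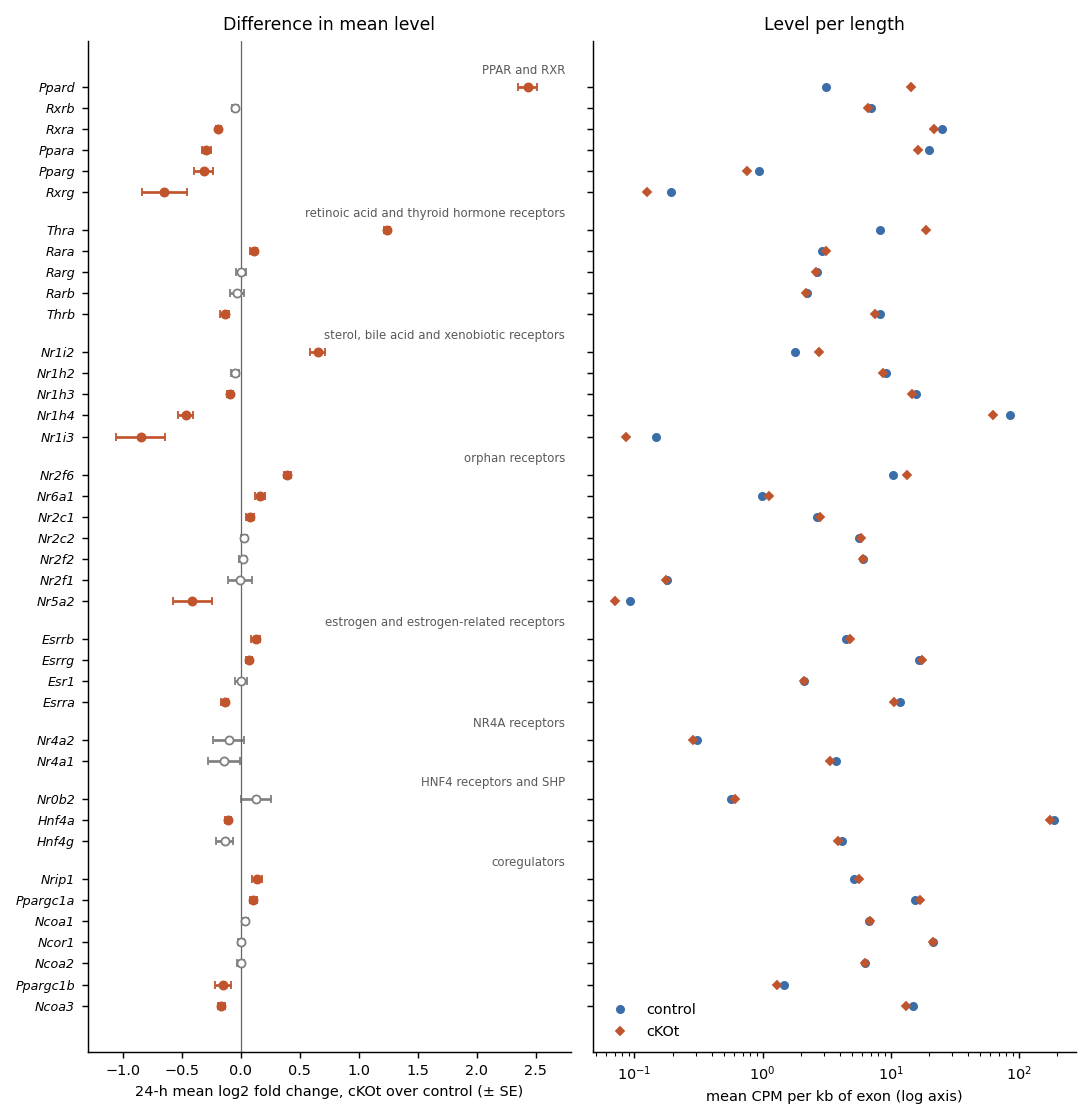
Left, the log2 fold change of cKOt over control mice in the 24-h mean with its SE (x axis) for the 39 members, grouped by class; filled points passed the test and open points did not. Right, the mean level in CPM per kb of exon on a log axis (blue circles, control; orange diamonds, cKOt; 30 mice each). Ppard at 2.43 and Thra at 1.24 stand to the right of all other members, and Hnf4a and Nr1h4 have the highest levels per length.

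Ppard, the PPAR that is expressed in most tissues and drives fatty acid use, showed the largest difference of the list. Its transcript was low in control mice by day and rose towards the end of the night, and in cKOt mice it was high at all times. At ZT8, from lowest to highest as in all such series here, the 5 control mice gave 6.81, 9.54, 9.91, 10.8 and 11.3 CPM and the 5 cKOt mice 58.3, 78.1, 103, 129 and 163 CPM. At ZT12 the values were 7.92, 9.51, 9.899, 10.05 and 11.3 CPM in control mice against 49.7, 62.3, 77.4, 88.6 and 113 CPM in cKOt mice. The control mice lay close together at these 2 times and the lowest cKOt mouse was far above them. At ZT16 the control mice gave 14.4, 15.3, 20.2, 24.8 and 28.6 CPM and the cKOt mice 115, 134, 143, 146 and 153 CPM. At ZT20 control mice had 23.1, 28.01, 30.7, 50.4 and 53.5 CPM and cKOt mice 91.7, 92.3, 112, 114 and 185 CPM. The control level thus climbed through the night and stayed under that of every cKOt mouse. At ZT0 the values were 20.5, 45.4, 47.02, 52.3 and 73.4 CPM in control mice against 103, 119, 119.7, 128 and 152 CPM in cKOt mice. At ZT4 control mice fell back to 11.5, 12.96, 15.7, 16.6 and 27.1 CPM and cKOt mice gave 37.9, 62.2, 87.8, 98.1 and 110.0 CPM. At each of the 6 times every cKOt mouse was above every control mouse.

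The 24-h mean of Ppard was 2.43 ± 0.083 (log2 fold change ± SE) higher in cKOt mice (edgeR quasi-likelihood test, adjusted p = 1.4e-31; 30 against 30 mice). The difference was smallest at ZT0 (1.36 ± 0.19) and largest at ZT8 (3.23 ± 0.22), and it varied with time (adjusted p = 2.2e-06, edgeR F test over 6 time points). Within each of the 6 batches of the sample table, cKOt mice were higher by 2.11 to 2.83 on the log2 scale. A 24-h rhythm was present in control mice that peaked at ZT21.7 and had an amplitude (peak to trough, log2) of 2.29 ± 0.18. In cKOt mice the amplitude was 0.58 ± 0.18 with a peak at ZT19.7, and the rhythms differed (edgeR F test, adjusted p = 7.1e-08). Ppard lies at chr17:28232700-28301474 (GRCm38) on the plus strand, and no other annotated gene overlapped its exons.

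Thra encodes the thyroid hormone receptor alpha and, by splicing, a variant that does not bind the hormone. Gene counts do not separate them. At ZT16, control mice gave 27.3, 30.6, 30.6, 30.98 and 37.4 CPM and cKOt mice 82.9, 91.8, 92.7, 93.2 and 97.9 CPM. At ZT12 the values were 25.8, 30.8, 31.7, 32.2 and 33.6 CPM and 68.2, 72.04, 73.2, 86.1 and 88.7 CPM. Control mice were at their lowest at these times and no cKOt mouse came near them. At ZT0 control mice gave 41.4, 41.9, 45.3, 49.2 and 53.5 CPM and cKOt mice 79.2, 86.6, 88.2, 90.98 and 100.3 CPM. At ZT4 control mice gave 40.6, 42.4, 45.4, 47.6 and 51.03 CPM and cKOt mice 60.8, 83.03, 94.5, 95.4 and 102 CPM. The highest control values thus came around lights on and still lay under all cKOt values. At ZT8 control mice were at 34.7, 35.2, 37.6, 37.9 and 39.7 CPM and cKOt mice at 78.6, 90.8, 96.2, 99.5 and 116 CPM. At ZT20 they were at 29.5, 31.6, 34.8, 43.9 and 44.6 CPM and 72.03, 83.5, 84.2, 87.7 and 89.2 CPM. As for Ppard, the values of the 2 genotypes were apart at all 6 times.

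The mean difference of Thra was 1.24 ± 0.025 (log2 fold change ± SE; edgeR quasi-likelihood test, adjusted p = 5.1e-42), between 1.11 and 1.37 within each batch. It grew from 0.94 ± 0.061 at ZT0 to 1.52 ± 0.063 at ZT16 and varied with time (adjusted p = 3.5e-05). The control rhythm peaked at ZT1.92 and spanned 0.59 ± 0.051 from peak to trough (log2). In cKOt mice the amplitude was 0.13 ± 0.051, the rhythm test did not pass (edgeR, adjusted p = 0.11), and the difference between the rhythms did (edgeR, adjusted p = 5.4e-06). Thra (chr11:98740638-98769006, plus strand) shares 263 exonic bases on the opposite strand with Nr1d1, the clock repressor REV-ERB alpha. Nr1d1 moved the other way, from 29.2 CPM in control to 9.60 CPM in cKOt mice, and its control peak at ZT6.37 lay away from that of Thra. The libraries were made with a stranded kit, but the strand setting of the counting is not given in the sources used here, so reads of the shared bases cannot be assigned with certainty.

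Nr2f6, an orphan receptor of the COUP-TF family that mostly represses, was the third member with higher levels and a flatter day. At ZT8, the control mice gave 17.8, 20.7, 22.3, 23.9 and 26.7 CPM and the cKOt mice 31.6, 34.1, 39.97, 44.4 and 49.6 CPM, the only time at which they did not overlap. At ZT12 the values were 19.9, 21.9, 27.2, 27.6 and 29.1 CPM and 28.5, 29.3, 35.5, 37.2 and 37.4 CPM, with 1 cKOt mouse inside and 1 just above the control range. At ZT4 control mice gave 25.8, 26.6, 29.3, 31.7 and 35.4 CPM and cKOt mice 30.1, 32.2, 37.6, 38.2 and 42.7 CPM. Daytime values were therefore higher in most cKOt mice. At ZT16 the values were 26.8, 32.9, 33.1, 34.01 and 49.2 CPM and 42.2, 42.6, 47.8, 49.7 and 56.8 CPM. At ZT20 they were 33.8, 36.6, 38.2, 38.4 and 40.2 CPM and 35.5, 36.6, 39.7, 40.8 and 42.9 CPM. At ZT0 they were 34.7, 35.5, 37.6, 37.7 and 42.8 CPM and 38.4, 43.2, 44.2, 45.2 and 45.5 CPM. At ZT20 and ZT0 the genotypes overlapped and did not pass the test, with differences of 0.086 ± 0.069 and 0.18 ± 0.068 (log2 ± SE).

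Over 24 h, Nr2f6 was higher in cKOt mice by 0.39 ± 0.028 (log2 ± SE, edgeR quasi-likelihood test, adjusted p = 9.7e-18) and in all 6 batches. The control rhythm peaked at ZT20.8 with an amplitude of 0.78 ± 0.058, against 0.20 ± 0.058 in cKOt mice, peaking at ZT20.2. The rhythms differed with the 2 RUVs factors in the fit (edgeR F test, adjusted p = 3.6e-06), but not without them (0.080) or when the batch replaced them (0.14). RUVs factors are covariates for unwanted variation that are estimated from the replicates. The first factor averaged 0.22, -0.71, 0.39, -0.77, 0.73 and -0.31 SD units in cKOt mice at ZT0, ZT4, ZT8, ZT12, ZT16 and ZT20, and the mean CPM of Nr2f6 in cKOt mice, which are not corrected for it, were higher at ZT0, ZT8 and ZT16 than at ZT4, ZT12 and ZT20. For Ppard the cKOt means were likewise lowest at ZT4 and ZT12 and highest at ZT16, but that at ZT20 (119 CPM) was above that at ZT8 (106 CPM). The log2 range of its cKOt group means was 0.89 before and 0.57 after removal of the factors. The part of that factor in the rhythm of the members was not tested. Ocel1, which shares 1622 exonic bases with Nr2f6 on the opposite strand, was at 7.48 CPM in control against 8.34 CPM in cKOt mice.

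**Figure D2:**
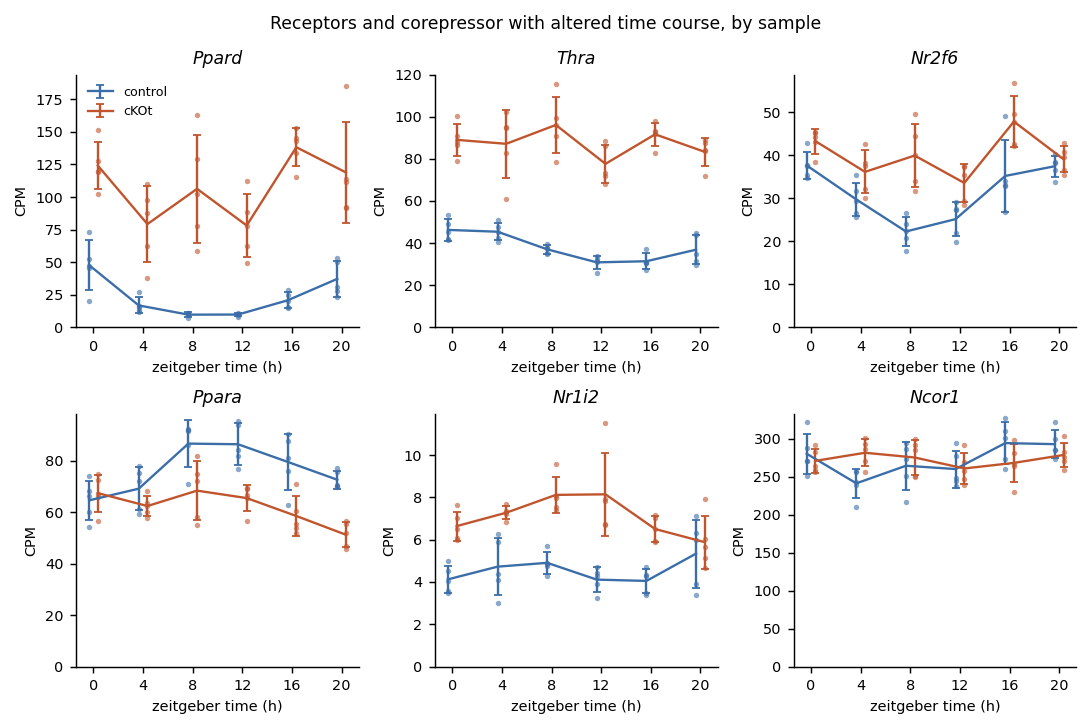
CPM (y axis, from 0) against zeitgeber time (x axis, h) for 6 members; points are mice, lines join group means and bars are SD (n = 5; blue, control; orange, cKOt). Ppard and Thra of cKOt mice lie above all control mice at every time, Nr2f6 and Ppara part mainly at some times, Nr1i2 is higher except at ZT20, and Ncor1 overlaps throughout.

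Ppara, the receptor that drives fatty acid oxidation in fasting and is abundant in proximal tubule, was lower in cKOt mice from midday through the night. At ZT8 control mice gave 71.2, 86.1, 91.8, 92.2 and 92.5 CPM and cKOt mice 55.2, 58.1, 72.1, 75.04 and 81.9 CPM. At ZT12 the values were 76.8, 81.9, 84.1, 94.1 and 95.7 CPM and 56.8, 65.6, 66.7, 69.2 and 69.5 CPM, with no overlap. At ZT16 they were 62.97, 75.97, 80.98, 87.7 and 90.7 CPM and 52.02, 53.7, 55.6, 60.4 and 71.2 CPM. The largest difference came at ZT20, where control mice gave 69.7, 70.2, 70.5, 75.8 and 77.2 CPM and cKOt mice 45.8, 46.8, 51.8, 55.4 and 56.7 CPM, again with no overlap. At ZT0 the values were 54.3, 60.01, 66.5, 68.3 and 74.3 CPM and 56.6, 65.9, 67.3, 72.6 and 75.1 CPM, and the genotypes lay over each other. At ZT4 they were 59.4, 61.3, 72.02, 75.3 and 78.02 CPM and 57.7, 60.2, 62.6, 63.5 and 68.3 CPM.

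The 24-h mean of Ppara differed by -0.30 ± 0.039 (log2 fold change ± SE; edgeR quasi-likelihood test, adjusted p = 5.6e-09) and was lower in cKOt mice in all 6 batches. Amplitudes were 0.44 ± 0.085 in control and 0.30 ± 0.085 in cKOt mice, with peaks at ZT11.6 and ZT7.03. The difference in rhythm was close to the threshold (edgeR, adjusted p = 0.045), as was the variation of the genotype difference with time (0.046). Without the sample marked for removal, the values were 0.057 and 0.056. The first call was lost under 8 and the second under 9 of 13 alternatives, among them leaving out replicates 1, 2, 3 and 4 in turn.

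Measured per kb of exon, so that genes can be compared, Ppara was the main PPAR of the control kidney at 19.96 CPM per kb, against 3.14 for Ppard and 0.94 for Pparg. In cKOt mice Ppara and Ppard came close, at 16.2 and 14.3 CPM per kb. Ppard made up 3.52% to 34.4% (median 10.4%) of the PPAR transcripts of a control mouse and 24.4% to 60.8% (median 45.7%) of those of a cKOt mouse. The share followed the time of day in control mice, from 5.26% ± 0.638 (SD, n = 5) at ZT12 to 25.9% ± 8.46 at ZT0. In cKOt mice it was 36.0% ± 7.78 at ZT12 and 47.5% ± 5.43 at ZT0. The thyroid hormone receptors shifted likewise, with Thra at 35.9% to 60.9% of their summed transcripts in control and 60.6% to 77.3% in cKOt mice. The summed level of both thyroid hormone receptors was 14.5 to 19.2 CPM per kb in control and 21.3 to 32.4 CPM per kb in cKOt mice, with no overlap of the 30 mice of each genotype. The composition of the other families moved less. Rxra held a median of 78.1% of RXR transcripts in control and 76.5% in cKOt mice, Nr1h3 63.1% and 62.8% of LXR transcripts, and Ppargc1a 91.2% and 92.6% of PGC-1 transcripts. Exon length is that of all annotated exons joined, so isoforms that use few of them are understated.

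Pparg, the adipocyte and collecting duct PPAR, was low. Over 30 mice each, it ran from 1.64 to 3.704 CPM (median 2.798) in control and from 0.972 to 4.699 CPM (median 2.16) in cKOt mice, and the genotypes overlapped at all 6 times. Its mean was lower in cKOt mice, with a log2 difference of -0.32 ± 0.080 (edgeR quasi-likelihood test, adjusted p = 0.00078), in all 6 batches. The fat cell marker Fabp4, which is also expressed by endothelium, was at 43.7 and 46.6 CPM, and none of 9 fat cell markers passed the test.

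Among the RXR partners, Rxra, the main one, ran from 97.2 to 199 CPM (median 137) in control and from 81.8 to 173 CPM (median 119) in cKOt mice. Its mean difference of -0.19 ± 0.020 (log2 ± SE; adjusted p = 5.7e-12, edgeR) was small, but passed the test at all 6 times. Rxrb did not pass (-0.050 ± 0.024, edgeR adjusted p = 0.084). Rxrg, at 1 to 20 counts per mouse, ran from 0.116 to 1.105 CPM (median 0.408) in control and from 0.0501 to 0.679 CPM (median 0.273) in cKOt mice and differed by -0.65 ± 0.19 (edgeR, adjusted p = 0.0034). The genotypes overlapped at all 6 times for each of the 3 RXR genes.

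Of the retinoic acid receptors, Rara was higher in cKOt mice by 0.11 ± 0.032 (log2 ± SE; edgeR adjusted p = 0.0044). This call was lost under 5 of 15 alternatives. These were the fit without RUVs factors (edgeR adjusted p = 0.47), the batch in their place (0.60) and the fits without replicate 2, 4 or 5. Within batches, Rara was higher in cKOt mice in 3 and lower in 3. Rarb and Rarg did not pass, with differences of -0.037 ± 0.058 and 0.0010 ± 0.042. Thrb, the thyroid hormone receptor beta, was lower, with a log2 difference of -0.14 ± 0.037 (edgeR, adjusted p = 0.0016), so the pair of thyroid hormone receptors moved in opposite directions. In control mice they stood level at 8.23 and 8.25 CPM per kb, and in cKOt mice at 18.97 and 7.54.

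The receptors for bile acids and xenobiotics all changed. Nr1h4, the bile acid receptor FXR, was the second most abundant member per length. At ZT12, control mice gave 172, 192, 277, 284 and 303 CPM and cKOt mice 124, 154, 159.6, 164 and 180.0 CPM. At ZT16 the values were 138, 155, 169.8, 186 and 215 CPM and 85.5, 87.5, 122, 129.8 and 133 CPM, and at this time all cKOt mice lay below all control mice. At ZT0 they were 129, 133, 162, 168 and 215 CPM and 69.1, 100.3, 106, 111 and 172 CPM, with 1 cKOt mouse well above the other 4. At ZT4, ZT8 and ZT20, the means were 197 ± 21.9, 218 ± 34.7 and 188 ± 41.2 CPM in control and 175 ± 11.1, 153 ± 35.3 and 154 ± 14.5 CPM in cKOt mice (SD, n = 5). The 24-h mean was lower, with a log2 difference of -0.47 ± 0.066 (edgeR quasi-likelihood test, adjusted p = 2.6e-08) and lower in all 6 batches. It was assigned a rhythm common to both genotypes, peaking at ZT8.68 with a log2 amplitude of 0.41.

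Nr1i2, the xenobiotic receptor PXR, was higher in cKOt mice. At ZT12 control mice gave 3.23, 3.905, 4.27, 4.41 and 4.72 CPM and cKOt mice 6.68, 6.74, 7.83, 7.92 and 11.5 CPM. At ZT4 the values were 3.005, 4.097, 4.37, 5.88 and 6.26 CPM and 6.81, 7.21, 7.33, 7.34 and 7.67 CPM. At ZT8 they were 4.302, 4.76, 4.87, 4.87 and 5.71 CPM and 7.41, 7.56, 7.97, 8.07 and 9.57 CPM. The genotypes were separate at these times and at ZT0 (means 4.12 and 6.64 CPM) and ZT16 (4.05 and 6.501 CPM). They overlapped only at ZT20, with 3.39, 3.92, 5.97, 6.32 and 7.103 CPM in control mice against 4.66, 5.14, 5.64, 6.04 and 7.92 CPM in cKOt mice. The mean difference was 0.65 ± 0.063 (log2 ± SE; edgeR quasi-likelihood test, adjusted p = 5.9e-13; higher in all 6 batches). A rhythm was assigned to cKOt mice only, peaking at ZT8.32 with an amplitude of 0.49 ± 0.13, against 0.078 ± 0.13 in control mice. The test of the difference between the rhythms did not pass (edgeR, adjusted p = 0.22).

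Nr1i3, the other xenobiotic receptor (CAR), moved the opposite way at a low level of 1 to 25 counts per mouse. It ran from 0.107 to 1.45 CPM (median 0.603) in control and from 0.0523 to 1.18 CPM (median 0.321) in cKOt mice, which overlapped at all 6 times, and its mean differed by -0.85 ± 0.20 (log2 ± SE; edgeR, adjusted p = 0.00042). Its exons share 3304 bases on the opposite strand with Tomm40l, which was at 41.5 and 38.8 CPM, and reads of those bases cannot be assigned with certainty here either. Of the oxysterol receptors, Nr1h3 (LXR alpha) was lower, with a log2 difference of -0.092 ± 0.028 (edgeR, adjusted p = 0.0044), lost without RUVs factors (0.089) or when the batch replaced them (0.12). Nr1h2 (LXR beta) did not pass (-0.053 ± 0.034, adjusted p = 0.19).

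**Figure D3:**
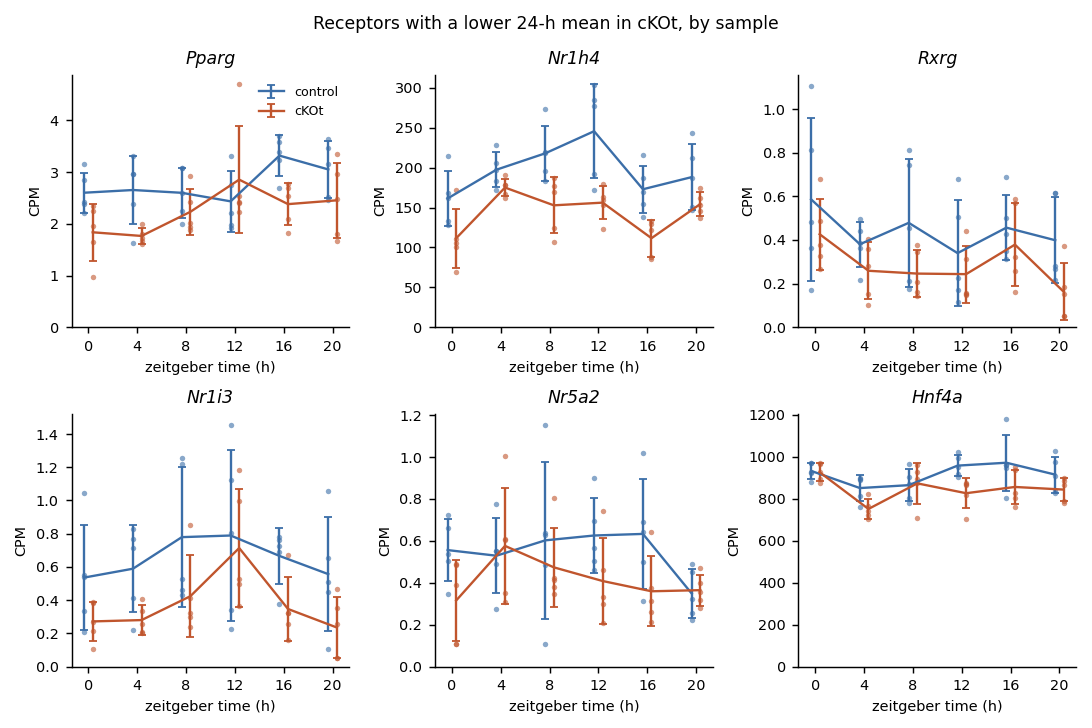
CPM (y axis, from 0) against zeitgeber time (x axis, h) for 6 receptors with a lower 24-h mean in cKOt mice; points are mice, lines join group means and bars are SD (n = 5; blue, control; orange, cKOt). Nr1h4 parts fully at ZT16, while Rxrg, Nr1i3 and Nr5a2 lie at or below 1.5 CPM and overlap at every time.

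HNF4 alpha (Hnf4a) had the highest level per length of the list, 189.7 CPM per kb in control and 175 in cKOt mice. It ran from 759.6 to 1181 CPM (median 912) in control and from 704 to 972 CPM (median 868) in cKOt mice. The mean difference was -0.11 ± 0.024 (log2 ± SE; edgeR quasi-likelihood test, adjusted p = 0.00014), with single times passing at ZT12, where the genotypes did not overlap, and at ZT16. Hnf4g did not pass (-0.14 ± 0.071, edgeR adjusted p = 0.098), nor did Nr0b2, the receptor SHP that lacks a DNA-binding domain and represses other receptors (0.13 ± 0.13, at 2 to 25 counts per mouse).

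The estrogen-related receptors, which act with PGC-1 coactivators on mitochondrial genes, changed by small amounts in different directions. Esrra was lower, with a log2 difference of -0.14 ± 0.029 (log2 ± SE; edgeR adjusted p = 7.9e-05), while Esrrb (0.12 ± 0.036, 0.0032) and Esrrg (0.067 ± 0.027, 0.033) were higher. The call of Esrrg was lost under 8 of 15 alternatives, among them the edgeR test without the sample marked for removal (adjusted p = 0.057). Esr1, the estrogen receptor alpha, was at 28.8 ± 5.299 CPM in the 30 control mice (mean ± SD) against 28.9 ± 4.35 CPM in as many cKOt mice and differed by 0.0024 ± 0.051 on the log2 scale.

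Of the remaining orphan receptors, Nr5a2, the receptor LRH that acts on bile acid and steroid genes in liver and gonads, was barely detected at 2 to 22 counts per mouse and lower, with a log2 difference of -0.41 ± 0.17 (edgeR, adjusted p = 0.033). Nr6a1, a germ cell repressor, was higher by 0.16 ± 0.045 (edgeR, adjusted p = 0.0023), and Nr2c1, a testicular receptor, by 0.078 ± 0.032 (0.038). For Nr2c1 the call was lost under 7 of 15 alternatives. Nr2c2, Nr2f1 and Nr2f2 did not pass, with differences between -0.0052 and 0.026. Nr2f2 (COUP-TFII), a factor of stroma and veins as well as tubule, had an SE of 0.029 on the log2 scale. Shared exonic bases on the opposite strand were 1793 for Rarb with Top2b, 4590 for Nr2c2 with Mrps25, 643 for Nr2f2 with B130024G19Rik and 154 for Ncoa3 with Sulf2, and 68 to 123 for Nr2f1, Esrra, Ncoa1 and Ncor1 with their neighbours. Nr4a1 and Nr4a2, immediate early genes that respond to handling and stimuli, varied widely among mice, from 2.90 to 27.1 CPM for Nr4a1, and did not pass (-0.14 ± 0.14 and -0.11 ± 0.13).

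Among the coregulators, changes were all under 1.2-fold. Ppargc1a, the coactivator PGC-1 alpha, was higher by 0.10 ± 0.029 (log2 ± SE; edgeR quasi-likelihood test, adjusted p = 0.0022), and Ppargc1b was lower, with a log2 difference of -0.16 ± 0.067 at the edge of the threshold (0.049, and 0.056 without the sample marked for removal). For Ppargc1b the call was lost under 11 of 15 alternatives. Of the steroid receptor coactivators, Ncoa3 was lower, with a log2 difference of -0.17 ± 0.031 (8.6e-06), with no overlap of the genotypes at 1 of 6 times, whereas Ncoa1 and Ncoa2 differed by 0.034 ± 0.026 and -0.0040 ± 0.028 and did not pass. Nrip1, a corepressor of oxidative metabolism, was higher by 0.13 ± 0.041 (0.0052). Ncor1, the corepressor that brings histone deacetylase to unliganded receptors, did not pass in the mean (0.0012 ± 0.028), with 272 ± 29.8 CPM (SD, n = 30) for control against 272 ± 19.7 CPM for cKOt mice.

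At single time points, 5 mice stood against 5. By the edgeR test, 6 members differed at ZT0 (12.1% of all genes), of which 4 were higher (6.63%) and 2 lower (5.49%) in cKOt mice. At ZT4 there were 5 (12.5%), with 4 higher (6.2%) and 1 lower (6.34%). At ZT8 there were 8 (19.9%), with 4 higher (10.6%) and 4 lower (9.29%). The 4 higher members were 10.3% of the 39 at each of these times, and Ppard, Thra and Nr1i2 were among them each time. At ZT12 there were 13 (21%), with 5 higher (10.3%) and 8 lower (10.8%). At ZT16 there were 10 (19.8%), with 5 higher (10%) and 5 lower (9.75%). At ZT20 there were 5 (13.8%), with 2 higher (5.98%) and 3 lower (7.79%). With 2 RUVs factors ZT12, the time of lights off, held the largest number. Without them, however, 11 members were called at ZT4 and 8 at ZT12, and without replicate 1 ZT8, ZT12 and ZT16 held 8 each. The shares of all genes at single times were not computed under these alternatives, so such counts cannot be set beside them. With 2 RUVs factors, the members called at ZT12 included Rxrb, Nr1h3, Esrra, Hnf4a, Ppargc1a and Ncoa3 beside those with larger changes. Ppard, Thra and Rxra passed at all 6 times. The genotype difference itself varied with time in 4 members (3.08% of all genes), namely Ppara, Ppard, Thra and Nr2f6. For Nr2f6 this call was lost without RUVs factors (edgeR, adjusted p = 0.051) and with the batch as covariate instead (0.19).

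**Figure D4:**
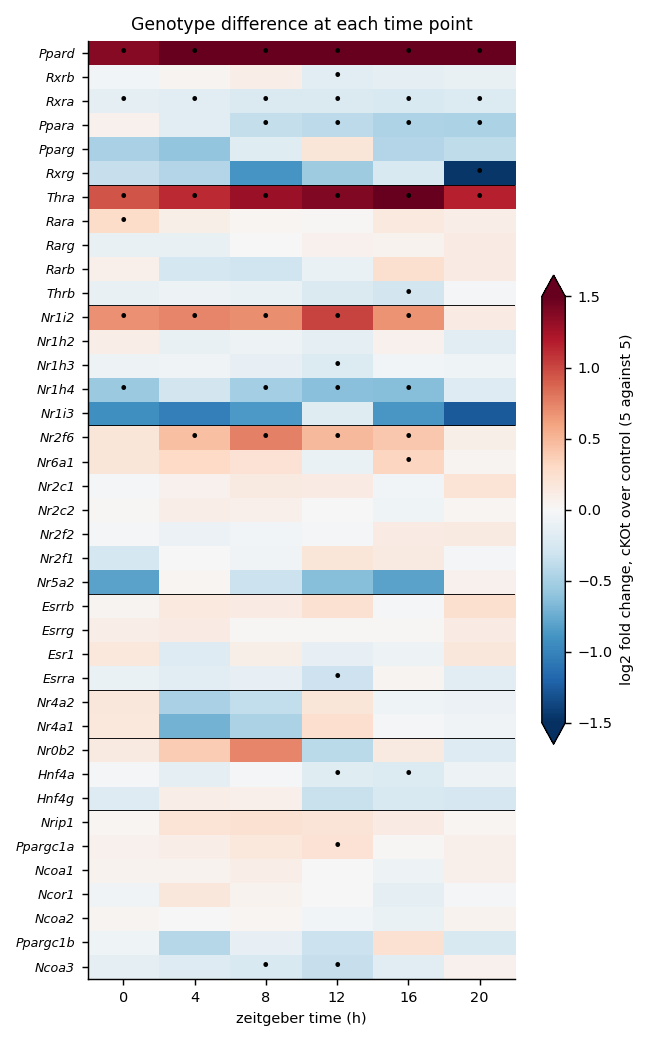
Log2 fold change of cKOt over control mice (colour, red higher and blue lower in cKOt, scale ended at 1.5 in each direction) for the 39 members (rows, by class) at each zeitgeber time (columns, h; 5 mice against 5). A dot marks a difference that passed the edgeR test; Ppard, Thra and Rxra have a dot at all 6 times.

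In control mice 13 members had a 24-h rhythm (33.1% of all genes) and in cKOt mice 12 (28.2%), by the harmonic edgeR F test. The rhythms themselves differed in 4 members (4.35% of all genes), the same 4 as above. Model selection after dryR sorted each gene by Bayesian information criterion (BIC) into model 1 (no rhythm), model 2 (rhythm in control only), model 3 (in cKOt only), model 4 (same rhythm in both) or model 5 (different rhythms in both), when the BIC weight reached 0.65. Model 5 held 3 members (2.37% of all genes), Ppara, Ppard and Nr2f6. Model 2 held 1 (6.25%), Ncor1, and model 3 held 1 (3.42%), Nr1i2. Model 4 held 6 (25.2%), model 1 held 10 (34%), and 18 had no model at that weight (28.7%). Thra was among the latter, with model 2 leading at a weight of 0.638.

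Ncor1 was the only member assigned a rhythm in control mice alone. Control means were lowest at ZT4 with 209.9, 239, 243, 257 and 257 CPM and highest at ZT16 with 259.6, 273, 301, 310.3 and 327 CPM. In cKOt mice the values at the same times were 256, 270.3, 286, 293 and 301 CPM and 229, 264, 267, 281 and 298 CPM. At ZT4, 4 of the 5 cKOt mice lay above all control mice and the other lay among the upper control values, and at ZT16 the genotypes lay over each other with the control mice higher on average. The control amplitude was 0.23 ± 0.057 with a peak at ZT18.5, against 0.063 ± 0.057 in cKOt mice, but the difference between the rhythms did not pass the edgeR test (adjusted p = 0.18).

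The 6 members with a common rhythm were Nr1h2, Nr1h3, Nr1h4, Esr1, Esrra and Esrrb. Esr1 had no model at that weight without the sample marked for removal. Their shared peaks spread around the day, at ZT7.001 for Nr1h2, ZT8.68 for Nr1h4, ZT13.2 for Esr1, ZT13.8 for Esrrb, ZT18.8 for Esrra and ZT20.99 for Nr1h3. In this fit the oxysterol receptors peaked apart, one by day and one by night, and amplitudes were 0.18 to 0.41 on the log2 scale. The rhythm of Nr1h2 passed the edgeR test in control mice (adjusted p = 0.041) but not in cKOt mice (0.21). By the same edgeR test this also held for Nr1h4 (0.020 and 0.24) and Esr1 (0.016 and 0.24). That of Esrra passed in cKOt mice (0.0016) but not in control mice (0.074). Only Nr1h3 and Esrrb passed in both genotypes. Without RUVs factors, Nr1h2 and Esrra were in model 1 and Esr1 had no model. Leaving out replicate 1, 2 or 4 left Nr1h2 without a model, and leaving out replicate 1, 2 or 3 did so for Nr1h4. Esr1 had no model without replicate 1, 2, 4 or 5, or with 1 RUVs factor. At a BIC weight of 0.8 neither Esr1 nor Nr1h4 had a model. Esrra was in model 3 without replicate 4. Nr1h3 and Esrrb stayed in model 4 under these settings. Levels of Nr1h4, Nr1h3 and Esrra were lower in cKOt mice and that of Esrrb higher.

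**Figure D5:**
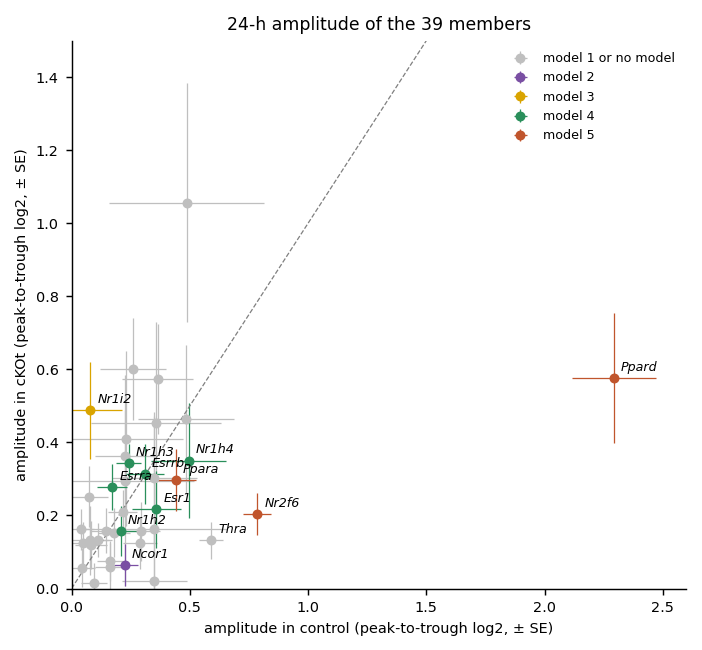
Amplitude of the 24-h rhythm (peak to trough, log2, ± SE) in cKOt (y axis) against control mice (x axis) for the 39 members, coloured by rhythm model; the dashed line marks equal amplitude and the axes have different scales. Ppard (2.29 against 0.58), Nr2f6 (0.78 against 0.20) and Thra (0.59 against 0.13) lie far below the line, and Nr1i2 lies above it.

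Genes known to be controlled by these receptors were counted from lists, each set beside the 26.8% of all genes that were higher and 23.2% that were lower in the 24-h mean (edgeR quasi-likelihood test). The lists were chosen with earlier results of these data known, so their counts are not independent of those results. Of 25 PPAR targets, 17 were lower and 2 higher in cKOt mice, with a median log2 difference of -0.42 against 0.012 over all genes. Those with the smallest adjusted p were all lower. Acadl, a mitochondrial acyl-CoA dehydrogenase, fell from 443 to 262 CPM, and Ucp2, an inner membrane carrier, from 113 to 38.8 CPM. The peroxisomal thiolase Acaa1b went from 165 to 75.6 CPM and the carnitine carrier Slc25a20 from 58.8 to 34.4 CPM. The rhythm also differed in 12 of the 25.

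Lists of targets of other receptors differed in their balance of higher and lower genes. Of 11 PXR and CAR targets, 8 were lower and 2 higher, among them Por, the electron donor of cytochromes P450 (232 to 149.7 CPM), Alas1 of haem synthesis (220.4 to 132 CPM) and, higher, the exporter genes Abcb1b (4.36 to 9.34 CPM) and Abcc3 (3.08 to 4.75 CPM). Of 7 FXR targets, 4 were higher and 1 lower. Slc51a, a basolateral bile acid exporter, went from 91.8 to 38.7 CPM and Slc10a2, the apical bile acid importer, from 71.0 to 123 CPM. Of 12 LXR targets, 5 were lower and 3 higher, with Lpcat3, a phospholipid remodelling enzyme, at 147 and 109.6 CPM. Of 10 thyroid hormone receptor targets, 2 were lower and 2 higher, with the malic enzyme Me1 at 791 and 647 CPM and G6pc, which releases glucose, at 627 and 837 CPM.

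Of 10 RAR targets, 4 were higher and 1 lower. The retinol esterifying enzyme Lrat rose from 3.77 to 11.8 CPM and the retinol dehydrogenase Rdh10 from 81.2 to 107 CPM. Of 17 HNF4 targets of proximal tubule, 11 were lower and 4 higher, led by the transporters Slc17a1 (924 to 693 CPM) and Slc22a8 (359 to 184 CPM) and by Cyp4b1. Of 24 targets of estrogen-related receptors and PGC-1, 14 were lower and 1 higher, with cytochrome c (Cycs) at 29.4 and 23.2 CPM, and none differed in rhythm.

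Nuclear receptors outside the list included receptors of the clock. Of 9 tested, 4 were higher and 3 lower. Nr1d2 fell from 157 to 37.6 CPM and Nr1d1 from 29.2 to 9.60 CPM, and the vitamin D receptor Vdr was at 322 and 349 CPM. Of 25 further coregulators, 10 were higher and 3 lower. Pnrc1, a small coactivator of several receptors, rose from 31.5 to 58.7 CPM, more than any coregulator of the list, while Ncoa5, Hdac3 and Tbl1xr1 changed by 0.20, 0.085 and -0.10 on the log2 scale.

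Markers of cells other than tubule moved too. All 7 endothelial markers were lower in cKOt mice (median log2 difference -0.11; summed 449.7 to 575 CPM in control and 407 to 518 in cKOt mice), as were 6 of 7 macrophage markers (-0.23; 155 to 302 and 133 to 221 CPM) and 5 of 7 fibroblast and pericyte markers (-0.18; 136 to 368 and 139 to 303 CPM). Of 10 proximal tubule markers, 5 were lower and 3 higher, and of 6 distal convoluted tubule markers 5 were higher. Of 6 markers of thick ascending limb, 3 were higher and 2 lower, of 8 of collecting duct 4 were higher and 2 lower, and of 6 of podocytes 1 was higher. Of 9 immediate early genes 2 were lower, and of 6 tubular injury genes 2 were lower and 1 higher. Neither of the 2 adrenal markers that could be tested passed. Of 19 clock genes, 7 were higher and 9 lower, and the rhythm differed in 14. The median shifts of the endothelial, macrophage and fibroblast markers are of the size of the smaller member differences, such as those of Rxra, Hnf4a and Thrb, and smaller than those of Ppard and Thra. Their part in the members' differences was not tested.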

How the data were processed

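The authors sequenced stranded mRNA libraries of 60 kidneys and deposited raw read counts per gene, 1 file per mouse. The submitters' processing notes name bcl2fastq, cutadapt 1.8, STAR 2.5.3a and HTSeq 0.9.1. Gene names, exon lengths and overlaps were taken here from GENCODE M21 on GRCm38. It held 55154 of the 55335 gene IDs in the count files, so the counting used a different set of gene models. Counts of no feature (7.17% to 10.6%) and ambiguous counts (0.953% to 1.27%) stayed out of library sizes. Depth was 17791420 to 20906706 counts (median 18545208.5). None of 120 pairs within groups was identical. Mice were separate animals, selected by the authors for RNA integrity and similarity within a group, so that p-values measure the spread among mice so chosen.

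Genes that reached 1 CPM in any sample were kept, normalised by TMM and fitted over all 60 samples with 2 RUVs factors (recomputed here) in edgeR 4.0.16 under R 4.3.3, by quasi-likelihood F tests with Benjamini-Hochberg adjustment over all 15546 genes (threshold 0.05). CPM printed here are TMM-normalised without removal of RUVs factors, while fold changes, rhythms and amplitudes include it. Rhythms were tested by 24-h cosine and sine terms and sorted by BIC weight (at least 0.65) on log2 CPM with a prior count of 2. The scripts were tested on simulated data. Alternatives were another normalisation (DESeq2 1.42.0), other filters, fewer RUVs factors, the batch, a replicate block, limma 3.58.1, left-out replicates and other thresholds. Members named in detail passed the mean test with a 1.2-fold change or the rhythm difference test, or were in rhythm model 2, 3 or 5. Up to 4 genes per other list, those with the smallest adjusted p, are named (a few are not reported here), and genes named beyond these were chosen after their values were seen. Members and lists were chosen with earlier results of these data known.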

Additional observations from a re-analysis of the deposited data

Results flagged for a closer look

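In 6 of 132 groups of 5 mice (11 members described in detail, 12 groups each), 1 mouse stood apart from the other 4 by Dixon's criterion, a share close to the 1 in 20 groups that chance gives. Among cKOt mice, these were 11.5 CPM of Nr1i2 at ZT12 (next mouse 7.92), 0.85 CPM of Nr1i3 at ZT8 (next 0.412), 0.807 CPM of Nr5a2 at ZT8 (next 0.425), 185 CPM of Ppard at ZT20 (next 114) and 4.7 CPM of Pparg at ZT12 (next 2.53). Among control mice it was 0.376 CPM of Nr1i3 at ZT16, below the next mouse at 0.688 CPM.

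The genotype difference changed with the time of day, by an edgeR F test of that change over 6 time points, for Ppard (adjusted p = 2.2e-06), Nr2f6 (3.2e-05), Thra (3.5e-05) and Ppara (0.046). The call of Nr2f6 was lost without RUVs factors (0.051) or when the batch replaced them (0.19), and that of Ppara under 9 of 13 alternatives.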

How the results depend on the processing

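Of the 24 members called for the 24-h mean, 15 kept the call under all 15 alternatives and 9 lost it under at least 1 (Rara, Rxrg, Nr1h3, Nr2c1, Esrrb, Esrrg, Nr5a2, Ppargc1b and Nrip1), and none changed direction. Of the 15 not called, 4 passed under at least 1 alternative (Rxrb, Nr1h2, Hnf4g and Ncoa1) and 8 changed sign. These 8 were near 0 on the log2 scale. Rarg was at -0.0072 with DESeq2 size factors, -0.0016 without the filter, -0.028 without RUVs factors, -0.0028 with 1 RUVs factor, -0.034 with the batch and -0.010 in the Wald test of DESeq2. Esr1 was at -0.0088 with size factors, -0.0035 without the filter, -0.0016 with filterByExpr, -0.0012 with 1 RUVs factor and -0.0080 in the Wald test. Ncor1 was at -0.010, -0.0060 and -0.0056 under the first 3 of these, at -0.0056 with the batch and at -0.0093 in the Wald test. Nr2f1 was at 0.00062 with filterByExpr and 0.0087 with the replicate block, Nr2f2 at -0.0078 with the batch and Ncoa2 at 0.00012 with 1 RUVs factor. With replicates left out, the ranges were -0.096 to 0.0034 for Rarb, -0.039 to 0.031 for Rarg, -0.00092 to 0.052 for Nr2c2, -0.052 to 0.074 for Nr2f1, -0.027 to 0.035 for Nr2f2, -0.032 to 0.027 for Esr1, -0.039 to 0.039 for Ncoa2 and -0.015 to 0.034 for Ncor1.

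The RUVs factors mattered most for timing. Without them, the genotype difference varied with time in 2 members, differences were called in 11 members at ZT4, 8 at ZT12 and 3 at ZT20, a rhythm was called in 8 members in control and 6 in cKOt mice, the rhythms differed in 2, models 2, 3 and 5 together held 8 and model 4 held 3. With the batch in their place, 7 members had a rhythm in cKOt mice. A BIC weight of 0.5 put 9 members in models 2, 3 and 5, and a 1.2-fold minimum left 4 higher and 6 lower. With replicates left out, 7 to 11 members were higher in the mean (7 without replicate 5), 3 to 6 differed at ZT0 (3 without replicate 2), 8 to 15 at ZT12 (8 without replicate 1), 7 to 12 had a rhythm in cKOt mice (7 without replicate 3 or 4), and models 2, 3 and 5 held 3 to 10 (3 without replicate 3, 10 without replicate 4). Of single members, Ncor1 stayed in model 2 throughout, while the other 4 in models 2, 3 and 5 lost theirs under several settings. Ppard lost it without replicate 1 or 3, without RUVs factors and at a BIC weight of 0.8. Ppara lost it without replicate 3, 4 or 5, Nr2f6 without replicate 3, with 1 RUVs factor or with none, and Nr1i2 without replicate 2 or 3. The cause was not tested, and shares of all genes under the alternatives were computed for the 24-h mean only.

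Samples with the same replicate number in different groups did not deviate together (mean correlation 0.0043 over 330 pairs, against -0.0010 over 1320 pairs with different numbers). With the replicate number as a block, the only mean call that changed was that of Ppargc1b (adjusted p = 0.058, edgeR quasi-likelihood test). DESeq2 size factors moved the share of higher among all called genes from 53.7% to 49.0%. Depth limits the members with 1 to 25 counts per mouse.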
